A study of Ovis aries with 14 samples.

Results

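The most abundant transcripts of the lamb lung were taken as all genes whose mean level over 14 libraries was 1000 CPM or more. CPM, counts scaled to the depth of the library, is a gene's count divided by the library total, times 1000000. The rule found 72 genes among the 27054 of the table, or 0.266% of them. Their levels chose them, so the levels are given as a description, and tests are reported only for differences between groups, which the rule did not use. RNA came from the right lower lung lobe of sheep (Ovis aries). Preterm lambs had 3 days of breathing support, either through a tube in the airway (invasive mechanical ventilation, IMV, n = 3) or through a mask (noninvasive respiratory support, NRS, n = 3), and both groups are labelled gd134 (gd, gestational day). Lungs labelled as having no treatment were called fetal start (n = 3, gd127, gd128 and gd131), fetal end (n = 3, gd135, gd134 and gd136) and term (n = 2, gd150, replicates 2 and 3). Whether term lambs had been born and had breathed is not given in the labels. Each library carries its own animal identifier, and those of fetal end replicates 1 and 2 contain the day that the age label gives to the other.

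The libraries were made from total RNA. In such libraries a small number of genes usually holds a large part of the counts, among them structural noncoding RNAs, transcripts of the mitochondrial genome and of the translation machinery, cytoskeletal genes, and, in lung, genes of the surfactant-producing cells and of the collagen matrix. Late gestation is the period in which type 2 alveolar cells come to make surfactant in quantity and in which the airspace walls thin. Which of the 72 genes belong to which of these classes cannot be said here, because the files give Ensembl identifiers without names and 0 identifiers matched the reference table. For the same reason no marker of lung or of blood could be checked, no pathway list was applied and no sequence is shown. The counts are not divided by gene length, so a rank compares the counts that genes take up, not transcripts per cell.

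Library totals ran from 23267448 to 31586235 counts, and the lowest count of any of the 72 genes in any library was 5285, where counting error alone is 1.38% of the value. Counting error was therefore small beside the spread between animals. The intervals given for shares of counts are Wilson intervals of 95% and cover counting error only, since reads copied by PCR are not independent molecules. Fetal end replicate 2 stood apart from the rest of its group in the 2 most abundant genes, as given below. Several, but not all, of the results that it moved across the threshold are given with and without it. In bulk tissue, fewer cells of a type and less RNA per cell cannot be told apart.

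The 72 genes held 21.0% ± 1.12 of all counts (SD, n = 14), whereas the 2033 genes with means from 100 to 1000 CPM held 46.4%. The share was 22.0% ± 0.395 at fetal start (SD, n = 3), 21.4% ± 1.41 at fetal end (SD, n = 3), 19.9% ± 0.589 with NRS (SD, n = 3), 21.6% ± 0.593 with IMV (SD, n = 3) and 20.0% ± 0.700 at term (SD, n = 2). By library it was 22.4, 21.8 and 21.7% at fetal start, 21.3, 19.9 and 22.8% at fetal end, 19.3, 20.2 and 20.3% with NRS, 22.3, 21.5 and 21.1% with IMV, and 20.4 and 19.5% at term. Each IMV library lay above each NRS library. Fetal start also lay above NRS and above term, whereas fetal end spanned nearly the whole range of the series. The highest share, in fetal end replicate 3, had an interval of 22.76 to 22.79%, and the lowest, in NRS replicate 1, of 19.25 to 19.28%, so the libraries differed by far more than counting error. Without fetal end replicate 2 the mean share at fetal end was 22.1%. These are sums over genes chosen by level, and no test was made of them.

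**Figure D1:**
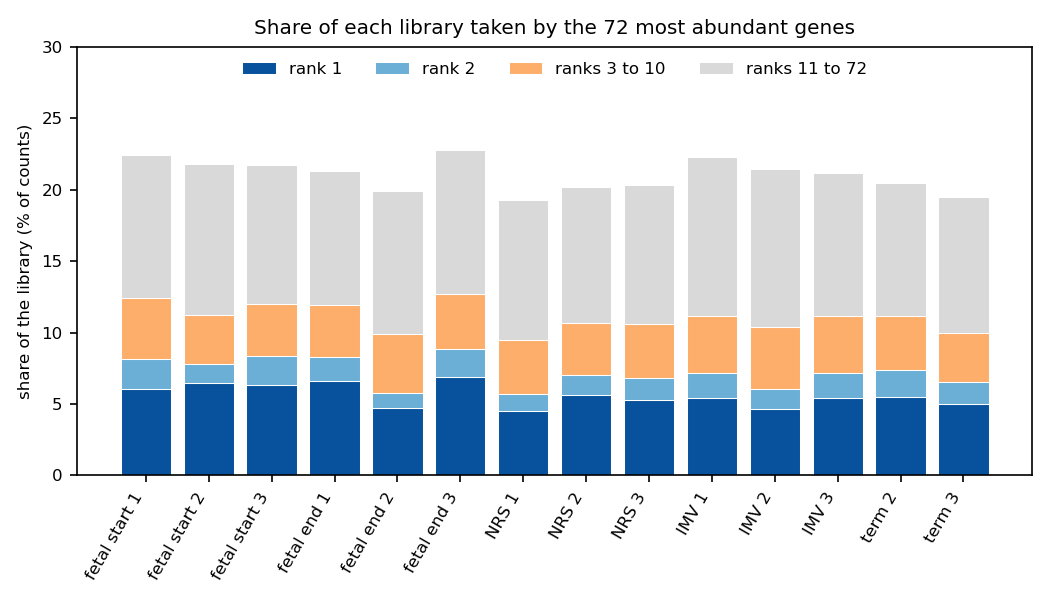
Each bar is 1 library, and its height is the percentage of the library's counts held by the 72 genes, split by rank of mean CPM. The bars reach from 19.3% (NRS replicate 1) to 22.8% (fetal end replicate 3), and the dark segment of the first-ranked gene is between 4.48 and 6.88%.

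The gene ranked first, ENSOARG00000023715, had a mean of 55943 CPM and led in 14 of 14 libraries. It alone took 6.04, 6.45 and 6.33% of counts at fetal start, 6.58, 4.73 and 6.88% at fetal end, 4.48, 5.62 and 5.28% with NRS, 5.40, 4.65 and 5.39% with IMV, and 5.48 and 5.005% at term. All libraries from supported and term lambs lay below 5 of the 6 fetal libraries, and fetal end replicate 2 lay among them. The intervals of its share were 4.72 to 4.73% in that library and 6.87 to 6.89% in fetal end replicate 3. Supported lungs (IMV and NRS) stood at 51389 ± 4585 CPM and fetal lungs (both groups) at 61665 ± 7587 CPM (SD, n = 6 each), and the log2 difference of -0.28 ± 0.12 did not pass (edgeR adjusted p = 0.158; errors of log2 differences are standard errors throughout). With fetal end replicate 2 left out it was -0.36 and passed (edgeR adjusted p = 0.0491), and with each of the other libraries left out it did not (edgeR adjusted p up to 0.331). Without this gene the members held 15.7% ± 0.594 at fetal start, 15.3% ± 0.575 at fetal end, 14.8% ± 0.230 with NRS, 16.5% ± 0.631 with IMV and 14.7% ± 0.362 at term (SD). On this measure IMV libraries again lay above NRS libraries, with 15.8 to 16.9% against 14.6 to 15.1%.

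The gene ranked second, ENSOARG00000023915, had a mean of 16299 CPM, and the first mean was 3.43 times as high. It was second in 13 of 14 libraries, the exception being fetal end replicate 2, where it had its lowest level, 10271 CPM, against 17388 and 20016 CPM in the other libraries of that group. Its group means were 18416 ± 4217 CPM at fetal start, 15892 ± 5042 at fetal end, 13779 ± 1765 with NRS, 16492 ± 2197 with IMV (SD, n = 3 each) and 17225 ± 2543 at term (SD, n = 2). Most groups overlapped in this gene, though both term libraries, at 19023 and 15427 CPM, lay above the highest NRS library at 15211 CPM. Between supported and fetal lungs it differed by -0.20 on the log2 scale (edgeR adjusted p = 0.496), and by -0.32 with fetal end replicate 2 left out (edgeR adjusted p = 0.165).

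ENSOARG00000016476, at rank 3 with a mean of 7670.2 CPM, varied more. It stood at 9204, 9517 and 4896 CPM at fetal start, 6041, 10357 and 8019.7 at fetal end, 8095, 6140 and 6403 with NRS, 9805, 13024 and 7789 with IMV, and 3307 and 4784 at term. Both term libraries lay below all others, and IMV replicate 2 held the highest value. The difference between term and fetal end was -0.99 ± 0.33 on the log2 scale and did not pass (edgeR adjusted p = 0.0904), while DESeq2 gave an adjusted p of 0.0203.

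The genes ranked 4 to 10 had means between 3883 and 4736 CPM. ENSOARG00000014988 (4736 CPM) and ENSOARG00000020023 (4433 CPM) were among the 10 highest genes in all 14 libraries, as were the first 2 genes. ENSOARG00000003474 (3949 CPM) had a coefficient of variation (SD over mean) of 9.25% over the 14 libraries, and ENSOARG00000006149 (4453 CPM) 13.2%. By contrast, ENSOARG00000010426 (4499.6 CPM) ranged from 1524 CPM at fetal start to 9142.5 at term, and ENSOARG00000019329 (3883 CPM) from 1007 CPM at term to 6368 with IMV. ENSOARG00000022840 (4686 CPM) is described with the term comparison. In all, 16 of the 72 genes appeared among the 10 highest of at least 1 library, and 0 genes from outside the set did.

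**Figure D2:**
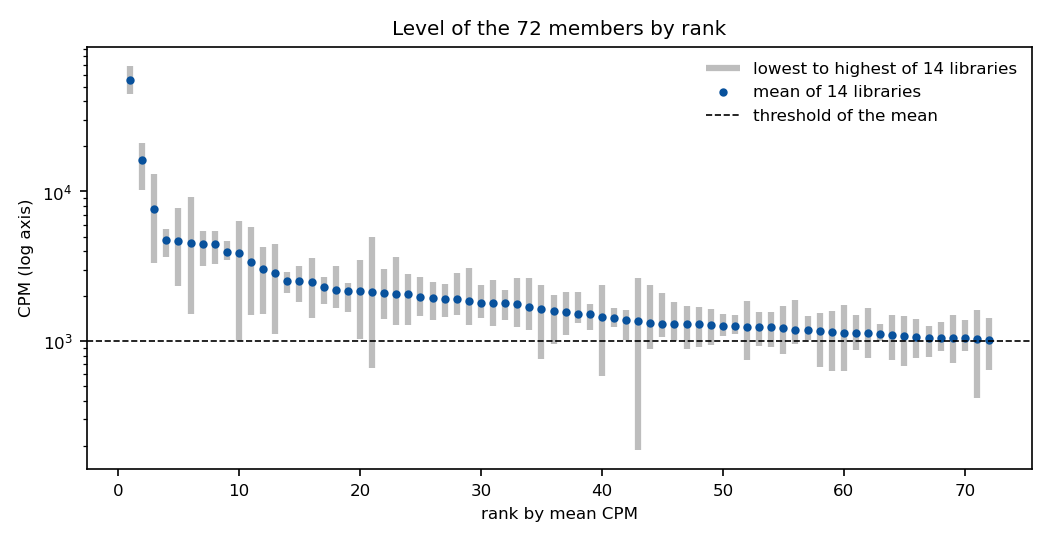
Points are mean CPM over 14 libraries against rank, and grey bars run from the lowest to the highest library, on a log axis, with the threshold of 1000 CPM dashed. The first gene, at 55943 CPM, stands 3.43 times above the second, and 48 of the 72 means lie between 1000 and 2000 CPM.

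Membership near the threshold was a matter of small differences. The last members inside were ENSOARG00000020503 at 1039.8 CPM and ENSOARG00000016366 at 1015 CPM, and the first genes outside were ENSOARG00000015142 at 999.999 CPM and ENSOARG00000002885 at 996 CPM. The last gene inside and the first outside each reached 1000 CPM in 6 of 14 libraries. Of the 72 genes, 42 were at 1000 CPM or more in every library and 30 fell under it in at least 1. With each library left out in turn the set held 71 to 74 genes, of which at least 71 were among the 72.

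Between animals of a group the members were moderately variable. The median SD of log2 CPM within groups was 0.203 for the 72 genes, 0.173 for the 155 genes with means between 500 and 1000 CPM, and 0.253 for the tested genes with counts in all libraries. Ratios of the highest to the lowest group mean had a median of 1.43 in the members, against 1.48 over all 17069 genes tested. Such a ratio was 2 or more for 9 members (12.5%), against 28.3% of all tested genes, and under 1.25 for 14 members (19.4%), against 25.3%. In the 155 genes with means between 500 and 1000 CPM the median ratio was 1.35, and these shares were 11.6% and 32.3%. The most variable members were ENSOARG00000010169 and ENSOARG00000011945, with coefficients of variation of 60.4% and 60.1%, and the steadiest were ENSOARG00000002458 with 8.80% and ENSOARG00000014725 with 9.22%.

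The members were unevenly spread over the groups in which they were highest. The highest group mean was at fetal start for 26 members, with IMV for 25, at term for 15, at fetal end for 4 and with NRS for 2. Over all tested genes these shares were 20.6% at fetal start, 17.9% with IMV, 25.8% at term, 20.4% at fetal end and 15.2% with NRS. The lowest mean was at term for 33 members and at fetal start for 17. Over all tested genes these shares were 29.6% at term and 25.9% at fetal start. The group means share libraries and the genes are not independent, so the counts are descriptive.

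Whether members differed among the 5 groups at all was asked first, in a fit over all genes (edgeR quasi-likelihood F test with Benjamini-Hochberg adjustment over 17069 genes). All 72 passed the filter on low counts. Of these, 7 passed at an adjusted p under 0.05, where 7.31% of all tested genes did, against 9.72% of the members. An unadjusted p under 0.05 was found for 33 members (45.8%), where 29.7% of all tested genes had one, and DESeq2 called 32 (44.4%), where it called 25.8% of all genes with an adjusted p. The smallest p belonged to ENSOARG00000016562 (edgeR adjusted p = 0.012). The count was 1 when IMV replicate 2, fetal start replicate 1, or replicate 1 or 3 of fetal end was left out. These fits called 3.04 to 3.98% of all tested genes. The count was 14 without fetal start replicate 3, in a fit that called 10.7% of all tested genes. It was 2 without IMV replicate 1 (4.36% of all tested genes) or NRS replicate 1 (3.92%). Without each of the other IMV, NRS and fetal libraries it was between 3 and 11 (2.86 to 8.57%).

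Supported lungs were then compared with fetal lungs, 6 animals against 6. Of the 72 genes, 5 rose and 1 fell (edgeR, adjusted p under 0.05), where 10.2% of all tested genes passed, 5.75% higher and 4.42% lower. Among the members the share was 8.33%, near that background, and DESeq2 called 12 members (16.7%), against 17.7% of all genes. The median log2 fold change of the members was -0.04 against -0.01 over all genes. Supported lambs differed from fetuses in birth as well as in support, fetal start lambs were also younger, and animal identifiers ending in 19 occurred at fetal end only, so these differences cannot be told apart from the effect of support.

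ENSOARG00000016562, ranked 33, was the gene that fell. Its level was 2156, 2626 and 2086 CPM at fetal start and 1964, 2126 and 2019 at fetal end, against 1396, 1431 and 1331 with NRS and 1575, 1667 and 1527 with IMV. No supported library reached the lowest fetal one, and the term libraries, at 1465 and 1238 CPM, lay in the range below. It changed by -0.56 ± 0.08 on the log2 scale (edgeR adjusted p = 0.00384), to 0.679 times the fetal level. The call held without each of the 12 libraries, with values between -0.59 and -0.49 (edgeR adjusted p from 0.0031 to 0.0147). Each of the 3 IMV libraries was above each NRS library, a difference of 0.24 on the log2 scale that did not pass (edgeR adjusted p = 0.473).

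Among members that passed, the 2 largest rises were those of ENSOARG00000005208 and ENSOARG00000018506. Larger estimates, up to 0.99 on the log2 scale, did not pass. ENSOARG00000005208, ranked 16, stood at 3318, 2921 and 2447 CPM with NRS and 2616, 2861 and 3313 with IMV, against 2094, 1425 and 2014 at fetal start and 1893, 2398 and 1619.8 at fetal end. Its groups did not overlap, though NRS replicate 3 and fetal end replicate 2 were close, and the gene rose by 0.60 ± 0.14 on the log2 scale (edgeR adjusted p = 0.024). It no longer passed when NRS replicate 1, fetal start replicate 2, or replicate 1 or 3 of fetal end was left out (highest edgeR adjusted p = 0.0602).

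ENSOARG00000018506, ranked 24, stood at 2799.99, 2132 and 2016 CPM with NRS and 2026, 2188 and 2610.5 with IMV, against 1614, 1276 and 1802 at fetal start and 1593, 1987 and 1543 at fetal end. Again every supported library lay above every fetal one, and again fetal end replicate 2 came nearest. It rose by 0.47 ± 0.11 on the log2 scale (edgeR adjusted p = 0.0198), a call that did not hold once fetal end replicate 3 was left out (edgeR adjusted p = 0.0512). The other 3 genes that rose did so by 1.20 to 1.39 times. Of these, ENSOARG00000010069 (edgeR adjusted p = 0.0165) kept its call without each of the 12 libraries. ENSOARG00000011863 (edgeR adjusted p = 0.0481) lost its call in 10 of those 12 fits, and ENSOARG00000016963 (edgeR adjusted p = 0.0485) in 11. In all 6 called genes the 6 supported libraries did not overlap the 6 fetal ones. Over all tested genes 5.14% showed no overlap in this comparison (3.27% higher and 1.87% lower), against 6 of 72 here. The number of members called was 3 when NRS replicate 1, fetal start replicate 2, or replicate 1 or 3 of fetal end was left out. Those fits called 4.77 to 6.63% of all tested genes. It was 8 without fetal start replicate 3, in a fit that called 11.8% of all tested genes.

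**Figure D3:**
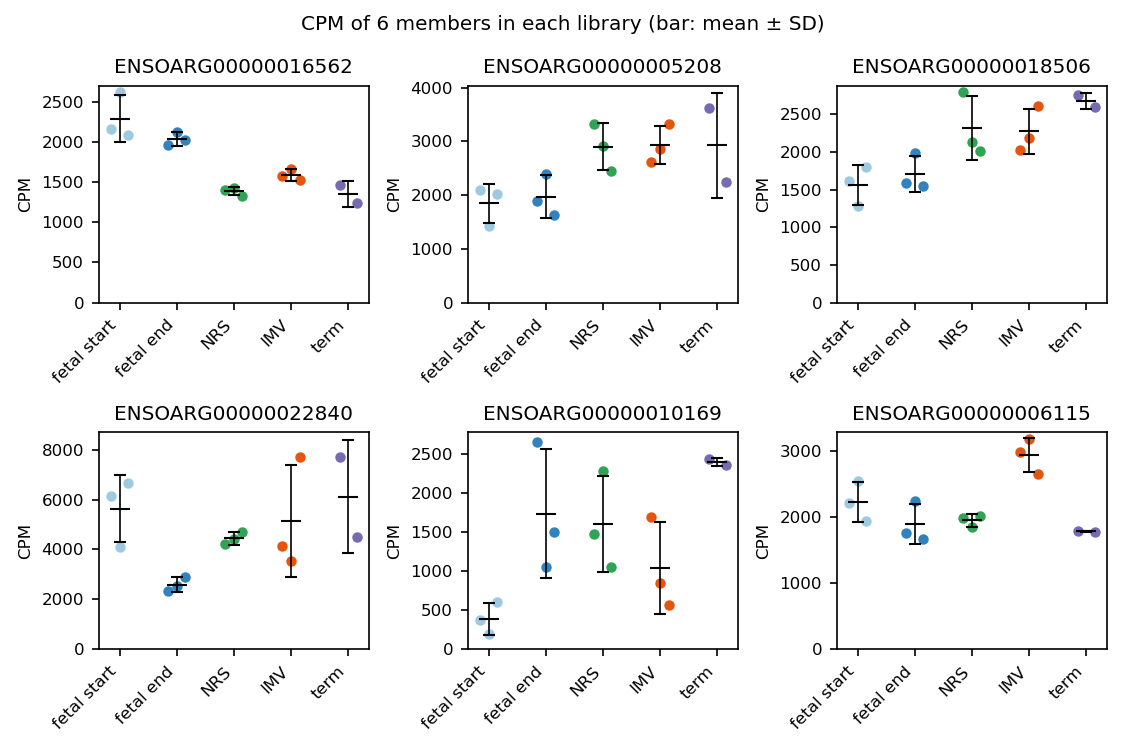
Points are CPM in single libraries by group for 6 members, and bars are the mean ± SD of the group. ENSOARG00000016562 is lower in all NRS, IMV and term libraries than in the fetal ones, and ENSOARG00000006115 is highest in the 3 IMV libraries.

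The comparison of the 2 kinds of support asks how lungs after a tube differed from lungs after a mask. Animal identifiers ended in 17, 17 and 18 with IMV and in 18 in all NRS libraries. Kind of support and identifier thus partly coincide and cannot be fully told apart. None of the 72 genes passed (0 by edgeR, where 0% of all tested genes were called). An unadjusted p under 0.05 was found for 10 members (13.9%), against 10.9% of all tested genes, and DESeq2 called 2 (2.78%), against 0.857% of all genes. The fold changes leaned one way: 58 of the 72 members had a higher estimate with IMV, against 50.7% of all tested genes, and their median log2 fold change was 0.17 against 0.00375 over all genes. The lean was shared by the next class, as 98 of the 155 genes with means between 500 and 1000 CPM were higher with IMV. With column totals 55 members were higher, where 43.2% of all tested genes were, and with RLE scaling 58, where 49.9% were. With each library left out 52 to 56 members were higher, where 49.2 to 51.3% of all tested genes were. In 20 members every IMV library was above every NRS library, where 6.51% of all tested genes showed this, and in 4 members every one was below, where 13.4% did. These members vary together, so the counts do not stand for that many separate observations.

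ENSOARG00000006115, ranked 18, had the smallest p among members estimated higher with IMV. It stood at 2979.5, 3177 and 2657 CPM with IMV against 1992, 1843 and 2016 with NRS. All 3 IMV libraries also exceeded every fetal and term library, the highest of which was 2549 CPM at fetal start. Its log2 difference from NRS was 0.64 ± 0.14 (edgeR adjusted p = 0.36, DESeq2 adjusted p = 0.00715). From fetal end it was 0.66 ± 0.14 (edgeR adjusted p = 0.0507), and with fetal end replicate 2 left out it was 0.78 and passed (edgeR adjusted p = 0.0222). Among members estimated lower with IMV the smallest p was that of ENSOARG00000010426, at 3209.6, 2664 and 2412 CPM with IMV against 4269, 7074 and 3827 with NRS. These groups did not overlap, and the log2 difference of -0.82 ± 0.35 did not pass (edgeR adjusted p = 0.439). It was -0.50 without NRS replicate 2, the highest of these libraries.

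Each kind of support was also set against fetal end, with the same 3 fetal end libraries in both. Only fetal end animals had identifiers ending in 19, so in both comparisons the identifier cannot be told apart from the group. After IMV 0 of the 72 members passed (edgeR), where 0.685% of all tested genes did (0.416% higher and 0.269% lower). An unadjusted p under 0.05 was found for 17 members (23.6%), against 21.7% of all tested genes, and DESeq2 called 11 (15.3%), against 9.77% of all genes. After NRS 0 members passed (edgeR), where 0.428% of all tested genes did. An unadjusted p under 0.05 was found for 11 members (15.3%), against 14.3% of all tested genes, and DESeq2 called 1 (1.39%), against 3.79% of all genes. In 19 members all IMV libraries lay above all fetal end libraries, where 13.0% of all tested genes did, and in 5 all lay below, where 14.6% did. For NRS this held in 8 members, where 11.8% did, and in 9 members all NRS libraries lay below, where 9.31% did. ENSOARG00000016562 had the smallest p among lower members in both, with log2 differences of -0.34 ± 0.12 after IMV (edgeR adjusted p = 0.133) and -0.58 ± 0.12 after NRS (edgeR adjusted p = 0.0596). ENSOARG00000018506 had the smallest p among members higher after NRS, at 0.41 ± 0.15 on the log2 scale (edgeR adjusted p = 0.25), and 0.27 without NRS replicate 1. Without fetal end replicate 2 the number of members called after IMV was 2 (2.78%), where that fit called 3.81% of all tested genes.

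A large difference that did not pass was that of ENSOARG00000011945, one of the most variable members. It stood at 4927, 3951 and 3250.2 CPM with IMV against 1179.7, 1598 and 1715 at fetal end, without overlap and with a log2 difference of 1.45 ± 0.53 (edgeR adjusted p = 0.146, DESeq2 adjusted p = 0.037). The NRS libraries, however, held 2515, 665 and 2745 CPM and the term libraries 700.03 and 2512 CPM. Both of these groups held a library far below the other libraries of the group.

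Fetal end against fetal start compares lungs labelled gd127 to gd131 and gd134 to gd136. Here too identifiers ending in 19 belonged to fetal end alone, so age and identifier cannot be told apart. By edgeR 0 members passed, where 0.00586% of all tested genes did. An unadjusted p under 0.05 was found for 9 members (12.5%), against 7.74% of all tested genes, and DESeq2 called 3 (4.17%), against 0.735% of all genes. All fetal end libraries lay above all fetal start libraries in 4 members, where 6.96% of all tested genes did, and below in 3, where 4.43% did. ENSOARG00000010169, the most variable member, had the smallest p among those estimated higher. It stood at 367, 187 and 605 CPM at fetal start and at 2655, 1056 and 1504 at fetal end, without overlap, and its log2 difference of 2.15 ± 0.50 was the largest of any member in this comparison (edgeR adjusted p = 0.362, DESeq2 adjusted p = 0.0215). Levels later in the series were 1474, 2279 and 1058 CPM with NRS, 1694, 853 and 568 with IMV, and 2436 and 2365 at term. Both term libraries lay above all libraries but fetal end replicate 1, and the IMV, NRS and fetal end libraries overlapped. ENSOARG00000024340 had the smallest p among members estimated lower, at 2176, 1523 and 2286 CPM against 4273, 2870.1 and 3751, which is -0.88 ± 0.19 on the log2 scale (edgeR adjusted p = 0.352, DESeq2 adjusted p = 0.00454).

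In the comparison of term with fetal end, of the 72 members 4 rose and 3 fell (edgeR), where 5.88% of all tested genes passed, 3.80% higher and 2.09% lower. Among the members this was 9.72%. All fetal end animals and no term animals had identifiers ending in 19, so age and identifier cannot be told apart here. In 24 members both term libraries lay below all fetal end libraries and in 9 above, where 22.1% and 20.2% of all tested genes did. ENSOARG00000022840 rose most, from 2337, 2517 and 2899 CPM at fetal end to 7724 and 4515 at term, by 1.26 ± 0.31 on the log2 scale (edgeR adjusted p = 0.0378). It was 0.81 without term replicate 2 (edgeR adjusted p = 0.281), the library with the higher value. This gene had already stood at 6157, 4094 and 6661 CPM at fetal start, and stood at 4209.8, 4401 and 4711 with NRS and 4133, 3550.4 and 7695 with IMV. The 3 fetal end libraries were thus the lowest of the 14, and the other groups overlapped one another.

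ENSOARG00000024340 followed a similar course and rose to 3398 and 3677 CPM at term, by 0.84 ± 0.21 on the log2 scale (edgeR adjusted p = 0.0395). Among the genes that fell with the largest change, ENSOARG00000004632 went from 1059, 1408 and 1166 CPM to 763 and 747, with a log2 difference of -0.66 ± 0.17 (edgeR adjusted p = 0.0412). ENSOARG00000007328 went from 1198, 1132 and 1414 CPM to 777 and 805, with a log2 difference of -0.64 ± 0.17 (edgeR adjusted p = 0.0468). Term libraries lay apart from fetal end in all 4 of these genes.

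All 7 term calls lay near the threshold (edgeR adjusted p from 0.032 to 0.0483). The other 3 were ENSOARG00000016562 (log2 difference -0.57, edgeR adjusted p = 0.032), ENSOARG00000018506 (0.67, edgeR adjusted p = 0.0395) and ENSOARG00000010069 (0.59, edgeR adjusted p = 0.0483). They also passed in the same direction between supported and fetal lungs, and both comparisons used the fetal end libraries. Without fetal end replicate 2, ENSOARG00000016562 and ENSOARG00000010069 no longer passed (edgeR adjusted p = 0.0535 and 0.0804). Most of the 7 calls were lost with 1 library left out, though the estimates kept their direction. ENSOARG00000024340 and ENSOARG00000004632 no longer passed without any 1 of the 5 libraries (highest edgeR adjusted p = 0.152 and 0.179). ENSOARG00000022840 kept its call only without term replicate 3, and ENSOARG00000007328 only without replicate 2 of fetal end (highest edgeR adjusted p = 0.281 and 0.21). The number of members called was 0 when term replicate 2, or replicate 1 or 3 of fetal end, was left out. It was 3 with term replicate 3 left out and 4 with replicate 2 of fetal end left out. Over all tested genes these fits called 0.249%, 1.55%, 0.669%, 2.95% and 4.99%, in the same order. Fitting these groups alone also gave 0 (0.870% of all tested genes), the replicate number as a block gave 2 (2.64%), and DESeq2 gave 16, or 22.2% of the members against 14.6% of all genes.

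**Figure D4:**
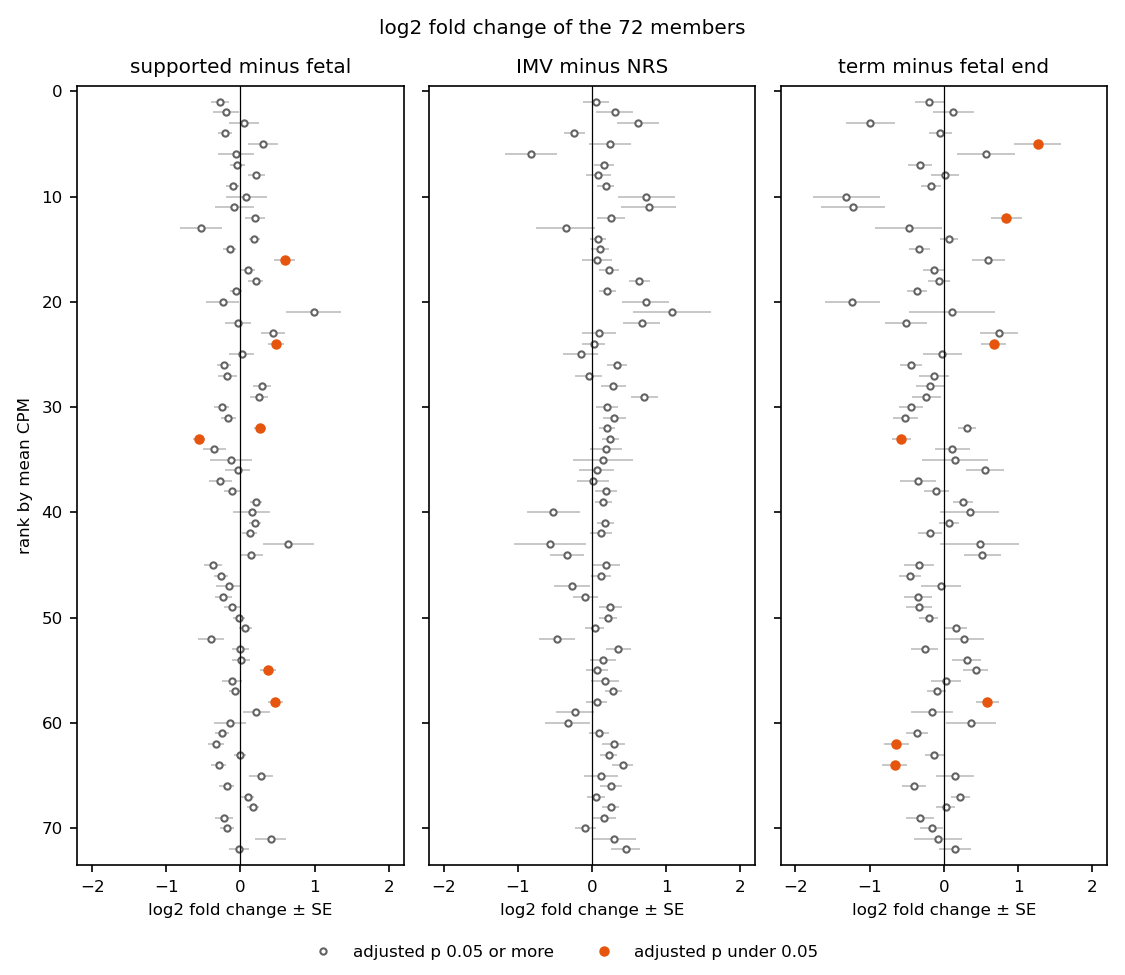
Each row is a member by rank, each point its log2 fold change and each grey line the standard error, for 3 comparisons, with filled points where the edgeR adjusted p was under 0.05. In the middle panel 58 of 72 points lie to the right of 0 and none is filled, and the outer panels hold 6 and 7 filled points.

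Members whose levels moved together across the 14 libraries were looked for among all 2556 pairs, on log2 CPM. The median Pearson correlation was 0.04, and 41 pairs were above 0.9 and 2 below -0.9. Linking the pairs above 0.9 gave 5 sets that together held 27 members, and 45 members belonged to none. The pairs were picked for their correlation, so it is a description and carries no p. All libraries share the same genes in their totals, so high levels of one abundant gene lower the CPM of others. The pairs above 0.9 kept a correlation of at least 0.76 after each group's mean was subtracted, and of at least 0.78 without the 2 libraries farthest from the median. The sets were found from these values and were not tested.

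The first set held 4 genes, ENSOARG00000016476, ENSOARG00000001508, ENSOARG00000004871 and ENSOARG00000009032, with correlations of 0.91 to 0.96 in all 6 pairs. Its closest pair, ENSOARG00000001508 and ENSOARG00000004871, had r = 0.96 and rho = 0.96. Together the 4 genes held 1.96, 1.98 and 0.901% of counts at fetal start, 1.23, 2.16 and 1.62% at fetal end, 1.53, 1.15 and 1.25% with NRS, 1.91, 2.54 and 1.59% with IMV, and 0.729 and 0.914% at term. The IMV libraries lay above the NRS libraries, and term was low. Fetal start replicate 3, from the oldest fetus of its group, was also low, and fetal end replicate 2 was higher than the others of its group.

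The second set held ENSOARG00000010426, ENSOARG00000020549 and ENSOARG00000010169, with correlations of 0.86 to 0.95. Its closest pair, the last 2, had r = 0.95 and rho = 0.92. The summed share was 0.336, 0.229 and 0.665% at fetal start, 1.05, 0.755 and 0.797% at fetal end, 0.719, 1.17 and 0.601% with NRS, 0.647, 0.457 and 0.366% with IMV, and 1.38 and 1.06% at term. It was thus lowest in the youngest 2 fetuses, the group mean was highest at term, and 2 of the 3 IMV libraries lay below all NRS and fetal end libraries. Fold changes of its members with IMV against NRS ran from -0.82 to -0.52 on the log2 scale, where those of the first set ran from 0.62 to 0.76.

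The third set was the largest, with 12 genes led by ENSOARG00000006149, and less tight, with correlations from 0.64 to 0.97. Only 25 of its 66 pairs were above 0.9, and the lowest correlation was 0.25 after each group's mean was subtracted. Its summed share was 2.48% ± 0.314 at fetal start, 2.27% ± 0.258 at fetal end, 2.03% ± 0.127 with NRS, 2.26% ± 0.0331 with IMV (SD, n = 3 each) and 1.71% ± 0.170 at term (SD, n = 2). All 12 genes had lower estimates at term than at fetal end, with log2 differences from -0.64 to -0.32, and 1 of them, ENSOARG00000007328, passed. All 12 also had higher estimates with IMV than with NRS, by 0.11 to 0.34 on the log2 scale, and 0 passed (edgeR).

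The fourth set held 6 genes led by ENSOARG00000005208, and 4 of them were among the 5 that rose in supported lungs. Correlations in this set ran from 0.75 to 0.95, with 7 of its 15 pairs above 0.9. After each group's mean was subtracted the lowest was 0.43. Its summed share was 0.823% ± 0.131 at fetal start, 0.884% ± 0.131 at fetal end, 1.162% ± 0.140 with NRS, 1.18% ± 0.0671 with IMV (SD, n = 3 each) and 1.29% ± 0.305 at term (SD, n = 2). Its IMV and NRS libraries overlapped, with log2 differences between them of 0.02 to 0.15. A member of this set, ENSOARG00000018506, and ENSOARG00000010582 of the third set ran against each other, with r = -0.91 and rho = -0.95.

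The fifth set was the pair ENSOARG00000006115 and ENSOARG00000006515, with the highest correlation of all, r = 0.98 and rho = 0.95. Without the 2 farthest libraries r was 0.95. Their summed share was 0.570, 0.624 and 0.474% with IMV, against 0.373, 0.342 and 0.369% with NRS and 0.306 and 0.318% at term. Fetal start replicate 2, at 0.476%, reached the lower end of the IMV range.

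**Figure D5:**
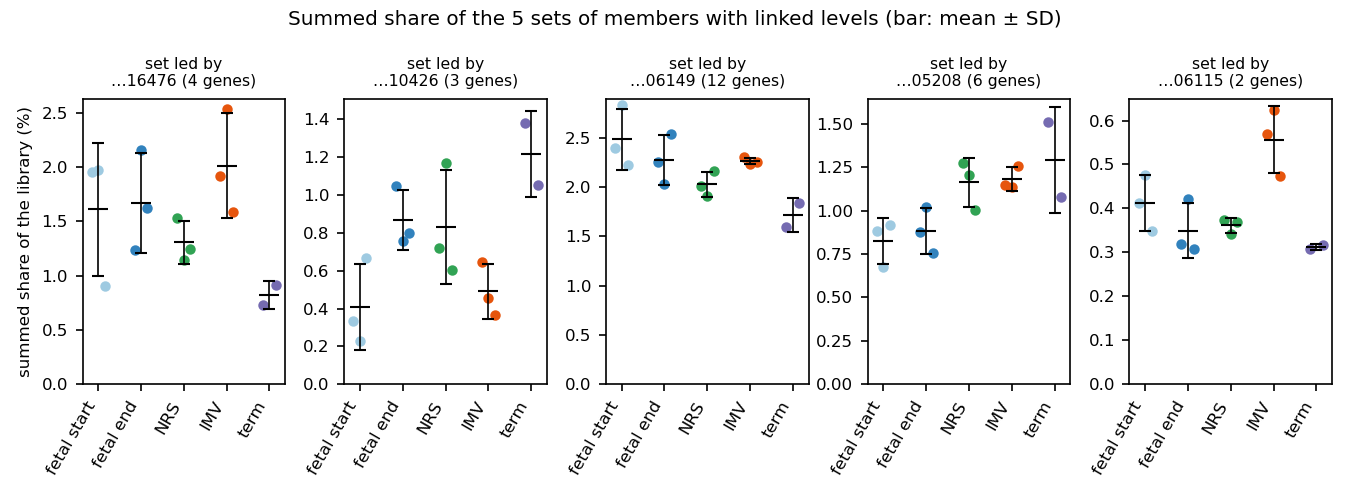
Points are the summed percentage of counts of each of the 5 linked sets in single libraries, by group, and bars are the mean ± SD. The 4-gene and 2-gene sets are higher in IMV than in NRS libraries, and the 6-gene set is higher in both supported groups than in the fetal ones except for overlap at 1.00% with NRS and 1.02% at fetal end.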

How the data were processed

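Total RNA of 14 lung samples was sequenced with a stranded total RNA kit, per the labels' protocols. The authors deposited raw counts per gene, whole numbers without normalization in all 14 sample columns. Per the submitters' processing notes, the build was Oar_v3.1 and the tools included featureCounts 1.6.3 of the Subread package, STAR 2.7.0f, DESeq2 1.22.2, bcl2fastq and cutadapt 1.16. No source used here gives the annotation, strand setting or handling of multi-mapping reads, so counts of overlapping or near-identical genes are uncertain, and abundant genes with many copies most of all. The reference table carries 0 of the identifiers, so the 23 gene lists could not be applied.

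CPM values divide by column totals. Differences were tested with edgeR 4.0.16 (filterByExpr, a quasi-likelihood F test and TMM scaling, with factors from 0.963 to 1.05) in R 4.3.3, with 14 libraries in 1 fit of 5 group means, 17069 genes kept and a threshold of 0.05. Groups came from sample titles. Replicate libraries differed by far more than sampling noise (chi-square per degree of freedom from 26.5 to 83.9). On simulated counts with 100 genes changed 2-fold and 100 changed 4-fold, 85 and 98 were recovered for supported against fetal (16778 genes). For IMV against NRS (16778 genes) 64 and 91 were recovered, and for term against fetal end (16774 genes) 57 and 88. False calls numbered 5, 8 and 3, in the same order. In these comparisons 0, 1 and 4 of the 72 members had estimates of 2-fold or more. Recovery of smaller changes, such as those of most members, was not simulated. Alternatives were DESeq2 1.42.0, RLE scaling, column totals, no filter, a fit of 2 groups, a replicate block and each library left out. For IMV against NRS the ending number of the animal identifier was also tried as a covariate. Members, lists and tests were chosen with earlier results of these data known. Genes were named by rule: the 10 highest, the 2 largest called changes per direction and comparison or else the smallest p, those next to the threshold, and the extremes of variation. ENSOARG00000006515, ENSOARG00000010582, ENSOARG00000001508, ENSOARG00000004871, ENSOARG00000009032, ENSOARG00000020549, ENSOARG00000010069, ENSOARG00000011863 and ENSOARG00000016963 were named outside it, after their values were seen.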

Additional observations from a re-analysis of the deposited data

How the results depend on the processing

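The set held 227 genes at 500 mean CPM, 24 at 2000 and 42 when 1000 CPM was required in every library. It held 71 to 74 with each library left out. The mean share was 15.5% without the first-ranked gene, 12.1% without the first 5, 31.7% at 500 mean CPM, 14.5% at 2000, and 20.9 to 21.2% with each library left out. Group means without each library ran from 21.3 to 21.9% (IMV), 19.7 to 20.3% (NRS), 20.6 to 22.1% (fetal end), 21.8 to 22.1% (fetal start) and 19.5 to 20.4% (term), the last from 1 library.

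DESeq2 called 2 members for IMV against NRS (0.857% of all genes), 11 for IMV (9.77%) and 1 for NRS (3.79%) against fetal end, 3 for fetal end against fetal start (0.735%), 16 for term against fetal end (14.6%), 12 for supported against fetal lungs (17.7%) and 32 for any difference (25.8%). A fit of 2 groups called 1 for IMV (0.915% of all genes) and 0 for term (0.870%) against fetal end. With the replicate number as a block, 2 members were called for term against fetal end (2.64% of all genes) and 2 for any difference (2.64%), and the block moved no other count by over 1.5 times. Same-numbered libraries did not deviate together (correlation over 0.1 in 6 of 26 pairs), so no pairing by number was seen. With groups this small the check cannot exclude one. With each library left out, members called ran from 0 to 0 for IMV against NRS, NRS against fetal end and fetal end against fetal start, 0 to 2 for IMV against fetal end, 0 to 4 for term against fetal end, 3 to 8 for supported against fetal lungs and 1 to 14 for any difference. Over all tested genes the share called ran from 4.77 to 11.8% for supported against fetal lungs and from 2.86 to 10.7% for any difference. For IMV against fetal end it ran from 0 to 3.81%. A term group of 1 library is assumed to vary like the other groups. Of 311 single-gene values recomputed, 0 reversed, 224 kept their side of the threshold, 79 lost a call and 8 gained one. The cause of these changes was not tested. RLE scaling or column totals moved the median of all genes by at most 0.0461 (log2). With the ending number of the animal identifier as a covariate, IMV against NRS stayed at 0 members, as in the main fit. In that fit 53 members were estimated higher with IMV, against 58 in the main fit. The log2 difference of ENSOARG00000006115 was then 0.57 (edgeR adjusted p = 0.842). At 3 animals a group or fewer, spread between animals rather than depth limits these results.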
